A study of Mus musculus with 2 samples.

Results

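This account concerns 39 genes of macrophages and related myeloid cells, chosen as a fixed list of gene symbols: Fc receptors and their adapters, the phagocyte NADPH oxidase, scavenger and lectin receptors, lysosomal and lytic proteins, other macrophage surface genes, and genes shared by all leukocytes. All 39 were found on the array among 12393 named genes, Adgre1 under its current symbol. They were followed in back skin, taken at an age of 10 days, on 1 array of transgenic animals and 1 array of non-transgenic wild-type littermates. The transgene, labelled K14Ahr, gives keratinocytes a constitutively active aryl hydrocarbon receptor (AhR), a transcription factor that is otherwise switched on by dioxins and related ligands. The Krt14 promoter is active in basal keratinocytes. The members were listed as genes of macrophages and other leukocytes, but some, such as Cyba, are not confined to them. Which cells gave their signals was not tested. The labels give no strain, sex or number of animals per array. With 1 array per genotype there is no replicate error and no test, and every difference below is between these 2 arrays only.

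Macrophages are phagocytes of the dermis that depend on the growth factor receptor encoded by Csf1r and take up debris, microbes and antibody-coated particles. Uptake runs through Fc receptors, which signal through small adapters with immunoreceptor tyrosine-based activation motifs (ITAMs), and through scavenger and lectin receptors. Engulfed material is attacked by superoxide from the NADPH oxidase and digested by lysosomal enzymes. In skin these genes are read from resident macrophages and, in part, from monocytes, dermal dendritic cells and neutrophils.

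Nearly all of these genes gave a higher signal on the transgenic array. Of the 39, 21 were higher there by 2-fold or more, 11 of them by 3-fold or more, while 9 differed by less than 2-fold, 5 had only a lower bound under 2-fold, and 4 could not be measured on either array. None was lower by 2-fold or more. The shares among all 8894 measured genes were 2.27% higher by 2-fold, 0.686% higher by 3-fold and 1.09% lower by 2-fold. The members were chosen with earlier results of these data known, so shares of all genes are given here and below as description only. Mrc1, the mannose receptor gene, read 328 on the transgenic and 60.8 on the wild-type array (5.39-fold). Tyrobp, the gene of the adapter DAP12, read 301 and 63.4 (4.75-fold), and Lyz2, the macrophage lysozyme gene, 439 and 110 (3.98-fold). The exception in direction was the scavenger receptor gene Msr1, with 38.2 against 46.6.

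Signals are in arbitrary units, and a floor of 34.7, the 40th percentile of all probe set signals, served as the limit of measurement. A gene was measured when its brightest probe set passed the floor on either array, and where only 1 array passed, the fold is a lower bound written as "at least". A bound has no place in an order of sizes, and medians of lists take it at its value. Of the members, 23 were above the floor on both arrays and 12 on the transgenic array alone. Those 12 could only appear as higher, and 7 of the 21 calls are of this kind. Among the 23 members above the floor on both arrays, 14 were at least 2-fold higher and the median log2 ratio was 1.05. For comparison, 7972 genes in all passed the floor on both arrays, 2.03% of them were higher by 2-fold or more, and their median log2 ratio was -0.05. With no floor at all, 38 of the 39 members had the higher signal on the transgenic array, against 45.6% of all named genes. A higher floor, the 60th percentile of signals (70.7), left 28 members measured and 9 of them past the 2-fold limit.

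**Figure D1:**
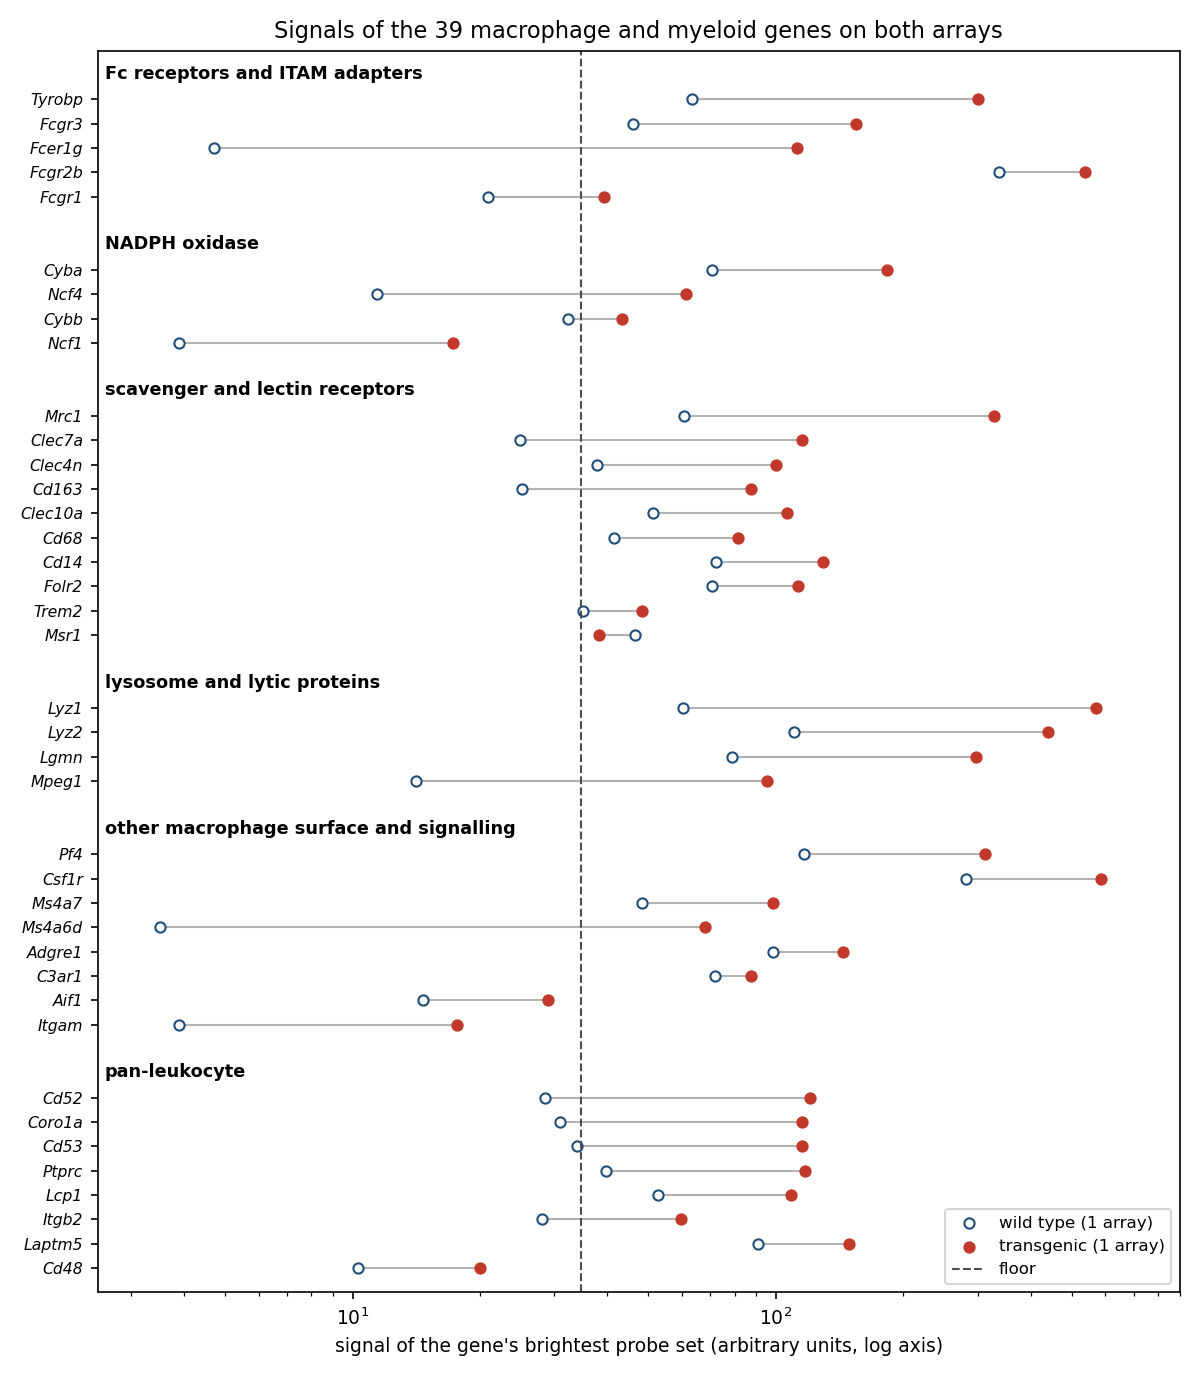
Signal of the brightest probe set of each of the 39 genes (log axis, arbitrary units) on the wild-type array (open circles) and the transgenic array (filled circles), grouped by role, with the floor as a dashed line. The transgenic signal lies to the right for every gene but Msr1, and 12 genes cross the floor between the arrays, while Ncf1, Itgam, Aif1 and Cd48 stay left of it on both.

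In whole skin more macrophages, more RNA per macrophage and signal from other cells cannot be told apart. Macrophage genes were also present in wild-type skin: Csf1r (281), Pf4 (117), Lyz2 (110) and Adgre1 (98.7) lay well above the floor there. Adgre1, a defining surface marker of mouse tissue macrophages, read 144 on the transgenic array, a 1.46-fold difference. Cd68, another defining marker, read 81.3 and 41.5 (1.96-fold). Itgam, an integrin chain of macrophages as well as of monocytes and neutrophils, did not reach the floor on either array by its 1 probe set, with 17.7 and 3.9.

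The RefSeq promoters of these genes (GRCm38.p6, 250 bases before to 50 after the start) were searched for the core GAGGAAG of the myeloid factor PU.1, encoded by Spi1, on both strands. Windows are printed for holders that were at least 2-fold higher. PU.1 is known to act at many myeloid promoters, and its part in the differences here was not tested. A promoter entry was matched for 28 members, and 8 of these held the motif (28.6%), against 15.4% of all 27025 genes with a promoter entry. Fcgr1, Itgam, Laptm5 and Trem2 held it and did not count as at least 2-fold higher. Of the 16 members that were at least 2-fold higher and had an entry, 4 held it (25.0%), namely Mrc1, Fcgr3, Cd53 and Pf4. Their windows follow, 5′ to 3′ in the direction of the gene, with the match in capitals. Every match is on the opposite strand and so reads CTTCCTC.
Mrc1, chr2:14229164-14229463, + strand: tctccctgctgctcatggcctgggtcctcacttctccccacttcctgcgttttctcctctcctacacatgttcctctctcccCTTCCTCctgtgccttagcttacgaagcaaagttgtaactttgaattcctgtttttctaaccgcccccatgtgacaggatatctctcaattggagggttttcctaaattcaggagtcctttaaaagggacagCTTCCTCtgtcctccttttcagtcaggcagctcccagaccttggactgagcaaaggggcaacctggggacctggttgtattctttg
Fcgr3, chr1:171059354-171059653, - strand: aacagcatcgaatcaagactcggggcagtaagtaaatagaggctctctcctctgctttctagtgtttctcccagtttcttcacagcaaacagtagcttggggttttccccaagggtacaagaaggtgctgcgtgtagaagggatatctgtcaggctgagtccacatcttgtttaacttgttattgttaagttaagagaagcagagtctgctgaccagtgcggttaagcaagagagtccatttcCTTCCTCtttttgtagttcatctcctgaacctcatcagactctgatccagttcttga
Cd53, chr3:106790100-106790399, - strand: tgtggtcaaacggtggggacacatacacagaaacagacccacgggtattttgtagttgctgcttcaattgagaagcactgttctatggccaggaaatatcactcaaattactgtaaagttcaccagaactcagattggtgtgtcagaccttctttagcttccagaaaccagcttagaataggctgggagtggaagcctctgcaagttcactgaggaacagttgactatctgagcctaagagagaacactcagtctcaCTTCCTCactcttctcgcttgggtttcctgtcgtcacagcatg
Pf4, chr5:90772185-90772484, + strand: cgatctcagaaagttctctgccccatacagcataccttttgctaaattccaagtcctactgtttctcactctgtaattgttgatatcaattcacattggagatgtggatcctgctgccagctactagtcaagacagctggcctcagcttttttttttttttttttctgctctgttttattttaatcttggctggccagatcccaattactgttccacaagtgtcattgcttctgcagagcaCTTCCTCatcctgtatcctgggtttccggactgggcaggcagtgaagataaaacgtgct
Mrc1 held 2 matches and the other windows shown 1 each. A second listed start of Fcgr3 gives an overlapping window with the same match. The core GCGTG of the AhR response element, which overlaps none of the PU.1 matches, was in the promoters of 4 members, Fcer1g, Fcgr3, Lgmn and Trem2 (14.3%), and in 35.2% of all. The longer form TNGCGTG was in none of the 28 and in 5.84% of all. The palindrome CACGTG, an E-box read by lysosomal regulators, was in Lgmn alone (3.57%, against 8.09%), and the AP-1 site TGANTCA in 6 members (21.4%, against 8.97%). Of the 16 members at least 2-fold higher with an entry, 1 held the AP-1 site, Ms4a7 (6.25%). These matches describe letters in the windows, and binding was not tested.

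Among the Fc receptors and their adapters, 3 of 5 genes were at least 2-fold higher, and all 5 passed the floor on the transgenic array. Both adapters were among the 3. Tyrobp, given above, serves many activating receptors of myeloid cells, Trem2 among them. Fcer1g, the common gamma chain of activating Fc receptors, read 112 on the transgenic array and 4.7, below the floor, on the wild-type array (at least 3.24-fold). Of the receptors for IgG, Fcgr3, which signals through Fcer1g, read 155 and 46.1 (3.36-fold). Fcgr1, the high-affinity receptor that uses the same chain, read 39.2 and 20.9, just over and under the floor, so its bound is only 1.13-fold.

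Fcgr2b, the inhibitory IgG receptor, gave readings that depended on the probe set. Its brightest probe set read 539 and 336 (1.60-fold). The other 3 read 254 against 37.6 (6.77-fold), 135 against 31.9 (at least 3.89-fold) and 88.2 against 34.8 (2.53-fold). All 4 were higher on the transgenic array, and all carry a letter suffix in their name, the array maker's mark for probes that may match more than 1 transcript. Fcgr2b, Fcgr4 and Fcgr3 are neighbours in the gene order, and the receptors are related in sequence. Which transcripts these probe sets read was not tested. With the probe sets averaged, the log2 ratio of Fcgr2b was 1.69 in place of 0.68.

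Other genes of the Fc receptor pathway differed less. Of 14 on the array 10 were measured, 2 at least 2-fold higher and none lower by that much, with a median log2 ratio of 0.41. The adapter gene Blnk read 138 and 55.0 (2.51-fold), and Inpp5d, the phosphatase that Fcgr2b recruits, 85.8 and 23.3 (at least 2.47-fold). The lowest were the kinase gene Fgr (0.23 on the log2 scale) and Hcst, an adapter related to Tyrobp (-0.46), which thus lay on the other side of equality from Tyrobp. The ITAM kinase Syk read 56.5 and 46.0 (log2 ratio 0.30). Among 14 inhibitory and paired receptors on the array, 9 were measured, 4 of them as bounds, and none passed the 2-fold limit, with a median of 0.58. Siglec1, a sialic acid receptor of tissue macrophages, had a log2 ratio of 0.94 and Pilrb1 of -0.36. Bounds were given by Clec4a2, with 59.7 and 15.1 (at least 0.78), and Pirb, with 39.6 and 16.2 (at least 0.19).

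The NADPH oxidase group had 1 of 4 members past 2-fold. The enzyme is a membrane pair, encoded by Cybb and Cyba, that is switched on by cytosolic subunits. Cyba, the smaller membrane chain, read 183 and 70.7 (2.59-fold). Cybb, the catalytic chain with which it pairs, read 43.3 and 32.3 (at least 1.25-fold), close to the floor on both arrays. Of the cytosolic subunits, Ncf4 read 61.2 and 11.4 (at least 1.76-fold). Ncf1 was under the floor throughout by both of its probe sets, with 17.3 and 3.9 by the brighter. Cyba, the member past 2-fold, is also the chain that oxidases outside phagocytes share. Of 5 other oxidase genes on the array 3 were measured, and none differed by 2-fold. Rac2, the GTPase of the leukocyte oxidase, read 106 and 55.1 (log2 ratio 0.95), its widely expressed relative Rac1 had a log2 ratio of 0.25, and the oxidase chaperone gene Cybc1 of 0.08.

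Of the 10 scavenger and lectin receptors 5 were at least 2-fold higher. Mrc1, a lectin that clears mannose-bearing glycoproteins, led the group. Clec7a, the beta-glucan receptor Dectin-1, read 115 and 24.9 (at least 3.31-fold). Clec4n, which encodes Dectin-2 and signals through Fcer1g, read 100 and 37.9 (2.64-fold). Cd163, the receptor for haptoglobin-bound hemoglobin, read 87.2 and 25.1 (at least 2.51-fold). Clec10a, a galactose-type lectin, read 106 and 51.4 (2.07-fold), the lowest of those past the limit.

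The other 5 lay within 2-fold. Cd68, a heavily glycosylated protein of the late endosome and lysosome, was just under the limit with a log2 ratio of 0.97. The lipopolysaccharide co-receptor gene Cd14 read 129 and 72.4 (1.78-fold), and Folr2, a folate receptor of resident macrophages, 113 and 70.5 (1.60-fold). Trem2, a lipid-sensing receptor, read 48.3 and 35.1 (1.38-fold). Msr1 was near the floor by 1 probe set (38.2 and 46.6), and its other 3 probe sets lay below it on both arrays, from 1.8 to 6.1. Lectin receptors therefore made up 4 of the 5 genes past the limit, and the class A scavenger receptor gene Msr1 was not among them.

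Other receptors of this kind lay closer to equality. Of 18 on the array 14 were measured, 1 was at least 2-fold higher and none lower, and the median log2 ratio was 0.22. Lyve1, a hyaluronan receptor of lymphatic vessels and of some macrophages, read 122 and 32.4 (at least 3.52-fold). Cd209f, a lectin, had a log2 ratio of 0.92. The lectin genes Cd209d (at least 0.52), Mgl2 (0.27) and Cd209a (0.09) were also under the limit. Scarb2, a lysosomal membrane protein (-0.28), and Mertk, a receptor for apoptotic cells (-0.66), were lowest.

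All 4 members that encode lysosomal or lytic proteins were at least 2-fold higher. Lyz2 is given above. Lgmn, the asparaginyl endopeptidase legumain, read 297 and 79.0 (3.76-fold). Mpeg1, the pore-forming perforin-2 of macrophages, read 95.5 and 14.1 (at least 2.75-fold). Lyz1, the lysozyme known from Paneth cells, read 572 and 60.3 (9.48-fold) by its brightest probe set and 155 and 32.7 (at least 4.48-fold) by a second. Both names carry the mark for possible cross-hybridisation. The third probe set, without it, read 35.7 and 30.7 (at least 1.03-fold). Lyz1 and Lyz2 lie next to each other in the gene order and encode closely related lysozymes, and whether the marked probe sets read Lyz2 was not tested.

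Lysosomal genes that most cells express lay closer to equality. Of 23 measured hydrolases and membrane proteins of the lysosome none differed by 2-fold, and the median log2 ratio was 0.12. Man2b1, an alpha-mannosidase (0.58), and Gusb, beta-glucuronidase (0.57), were highest. The sulfatase gene Galns (-0.61) and Gpnmb (-0.95), a glycoprotein of melanosomes and of macrophages, were lowest. Lamp1 read 1185 and 1091 (log2 ratio 0.12). Among 10 lysosomal proteases 1 was at least 2-fold higher, Ctss, the cathepsin of antigen-presenting cells, with 435 and 94.1 (4.63-fold). The next was Ctsa (0.62), Ctsl (-0.02) and Ctsz (-0.06) were lowest, and the median was 0.16.

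**Figure D2:**
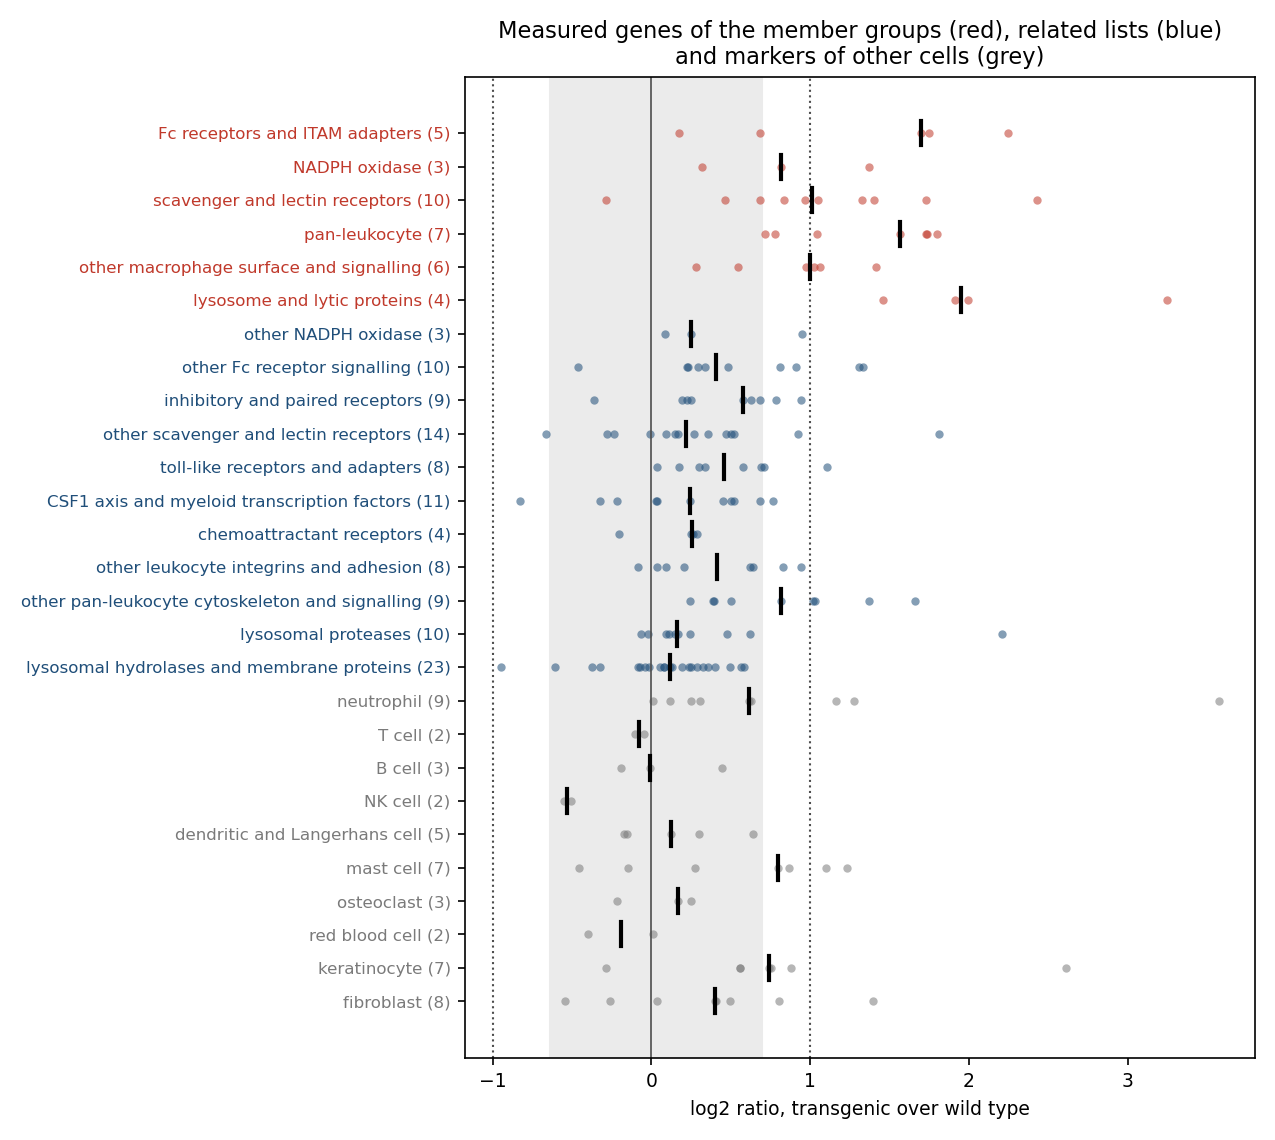
Log2 ratio (transgenic over wild type) for every measured gene (points) of the 6 member groups, of 11 lists of related genes and of 10 lists of markers of other cells, with list medians as black bars and the number of measured genes in brackets. Dotted lines mark 2-fold, and the grey band holds the central 90% of all measured genes, from -0.64 to 0.70. The medians of all member groups lie right of the band, as do those of the related pan-leukocyte genes, mast cell markers and keratinocyte markers, while those of the lysosomal lists lie inside it.

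Of the 8 other macrophage surface and signalling genes 3 were at least 2-fold higher. Pf4, a chemokine of platelets that some tissue macrophages also express, read 311 and 117 (2.67-fold). Csf1r read 587 and 281 (2.09-fold) by its brightest probe set and 1.59-fold and 1.37-fold by the other 2. Averaged over its probe sets its log2 ratio was 0.73, under the limit. Ms4a7, a membrane protein of macrophages, read 98.4 and 48.3 (2.04-fold).

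Ms4a6d, of the same family, read 68.1 and 3.5. Its bound of at least 1.96-fold is set by the floor, and under a lower floor, the 20th percentile of signals, its log2 ratio was 2.52. A second probe set read 56.1 and 0.8. Of the remaining members, Adgre1 and the complement receptor gene C3ar1 lay within 2-fold. C3ar1 read 87.4 and 72.0 (1.21-fold) by 1 probe set and 81.8 and 42.9 (1.91-fold) by the other. Itgam and Aif1, a calcium-binding protein of macrophages that read 28.9 and 14.7, were below the floor on both arrays.

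Of 17 genes of the Csf1 pathway and of myeloid transcription factors on the array 11 were measured, 4 of them as bounds. None passed the 2-fold limit, and the median log2 ratio was 0.24. The PU.1 gene Spi1 read 58.9 and 30.9 (at least 1.70-fold) and Irf8, a factor of monocytes and dendritic cells, 55.7 and 34.4 (at least 1.61-fold). The ligand genes of the Csf1r receptor, Csf1 (log2 ratio 0.50) and Il34 (0.24), lay closer to equality. Lower on the transgenic array were Nr1h3 (at most -0.32) and Mitf (-0.83), a factor of melanocytes and mast cells as well as macrophages. Of 8 measured genes of toll-like receptors and their partners 1 was at least 2-fold higher, Ly86 (74.8 and 8.3, at least 2.16-fold), with a median of 0.46. The adapter Myd88 had a log2 ratio of 0.71 and Cd180 of 0.17, and Ly96 read 35.5 and 30.7 (at least 0.03). Of 4 measured chemoattractant receptors 3 gave only bounds, all near the floor on the transgenic array: Ccr1 with 42.3 and 24 (at least 0.29), Ccr2 with 41.7 and 7.8 (at least 0.27) and Ptafr with 41.3 and 28.4 (at least 0.25). The other, Cxcr4, had a log2 ratio of -0.20.

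Of the 8 pan-leukocyte genes 5 were at least 2-fold higher. Ptprc, the CD45 phosphatase of all nucleated blood cells, read 117 and 39.6 (2.96-fold). Cd52, a small surface glycoprotein, read 120 and 28.5 (at least 3.47-fold). Coro1a, an actin regulator, read 116 and 30.9 (at least 3.33-fold), and the tetraspanin gene Cd53 read 115 and 34.0 (at least 3.31-fold). Lcp1, the actin-bundling L-plastin, read 109 and 52.8 (2.06-fold), and its second probe set gave at least 2.14-fold. Transgenic signals of these 5 genes were alike, from 109 to 120, but different probe sets do not share a scale.

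Itgb2, the common chain of leukocyte integrins, read 59.6 and 28.0 (at least 1.72-fold). Laptm5, a lysosomal membrane protein of blood cells, read 148 and 90.6 (1.64-fold) by its brightest probe set, and its other 2 gave at least 2.90-fold and 2.12-fold. Cd48, a ligand of lymphocyte receptors, lay below the floor with 20 and 10.3. Other genes of this class differed too: of 9 measured 4 were at least 2-fold higher and none lower, with a median log2 ratio of 0.82. Arhgdib read 463 and 147 (3.16-fold), and Alox5ap, a leukotriene synthesis gene, 258 and 100 (2.58-fold). Bounds under the limit were those of Lst1, with 45.5 and 2.8 (at least 0.39), and Cd37, with 41.0 and 30.3 (at least 0.24), among others. Of 8 measured adhesion genes of leukocytes, 4 of them bounds, none passed the limit, with a median of 0.41. Icam1 (0.94) and Cd44 (0.83), which keratinocytes also express, were higher on the transgenic array, Itgb1 had a log2 ratio of -0.09, and Itgal read 35.5 and 17.8 (at least 0.03).

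Pan-leukocyte genes are not specific to macrophages, so markers of other cells were read beside them. Summed signals include genes below the floor and probe sets that do not share a scale, so they are description only. Of 10 T cell genes on the array 8, with Cd3d, Cd3e, Cd3g, Cd4, Cd8a and Cd8b1, did not reach the floor, and the summed signal was 173 on the transgenic and 186 on the wild-type array. Most of that sum was signal below the floor. The measured T cell genes Cd5 and Cd247 had log2 ratios of -0.10 and at most -0.05. B cell genes summed to 223 and 207, with Cd79a and Cd79b below the floor, and natural killer cell genes to 129 and 190, with Ncr1 below the floor. Median log2 ratios were -0.01 for 3 measured B cell genes and -0.53 for 2 measured natural killer cell genes. Whether these cells differed in number was not tested. Neutrophil genes summed to 1932 and 789, and 3 of 9 measured were at least 2-fold higher. These were S100a9 (11.9-fold), Ngp (2.43-fold) and S100a8 (2.24-fold), and S100a8 and S100a9 are also made by stressed keratinocytes. All 9 measured neutrophil genes were above 0, 2 of them as bounds, with a median of 0.61. The bounds were Camp, with 42.9 and 4.6, and Csf3r, with 37.6 and 14.7. The neutrophil genes Elane, Prtn3 and Cxcr2 lay below the floor, and Mpo read 56.4 and 56.1. Mast cell genes summed to 991 and 612, with 5 of 7 measured above 0 and a median of 0.80. The proteases Mcpt4 (2.35-fold) and Cpa3 (2.14-fold) passed the limit, Cma1 (1.82-fold) and Tpsb2 (1.74-fold) did not, and Kit (-0.46) and Ms4a2 (-0.15) were below 0. Dendritic and Langerhans cell genes summed to 1114 and 869, with Cd207 and Flt3 below the floor on both arrays. Without Epcam, which epithelial cells also express, that sum was 415 and 420, with 208 and 234 of it from Fscn1. Of 5 measured genes of this list 3 were above 0, Xcr1 and Cd83 as bounds among them. The other 2 were below 0, and the median was 0.12. For the members the sums were 6148 and 2272. The part of neutrophils, mast cells and other leukocytes in the differences of the pan-leukocyte genes and the other members was not tested.

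Non-leukocyte markers were read the same way. Keratinocyte markers also summed higher on the transgenic array, 14946 against 7981, with 1 of 7 at least 2-fold higher, Krt1 (6.12-fold), and Krt14 at a log2 ratio of 0.74. Fibroblast markers summed to 9721 and 10024, a sum carried by bright collagen genes such as Col1a1 (-0.54) and Col1a2 (-0.26), but 6 of 8 were above 0, with a median of 0.40, and Pdgfra was at least 2-fold higher (2.63-fold). Of 4 red blood cell genes on the array 2 were measured, Slc4a1 with 75.2 and 74.8 and Alas2 with 48.1 and 63.3. Osteoclast genes, markers of another cell of the macrophage lineage, summed to 323 and 294. The part of these differences in tissue makeup in the members' ratios was not tested.

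Probe sets gave a technical check within the arrays. The members have 60 probe sets, of which 29 passed the floor on both arrays and 19 on the transgenic array alone, where they could only come out higher. Of the 29, 28 were higher on the transgenic array, 17 of them by 2-fold or more, against 42.7% and 1.77% of 11649 such probe sets of named genes. Csf1r, Fcgr2b, Laptm5 and C3ar1 had more than 1 probe set above the floor on both arrays, and in these 4 every one was above 0. Sizes varied over all measured probe sets of a member: the log2 ratios of Lcp1 differed by 0.06, those of Fcgr2b by 2.08 and those of Lyz1 by 3.20. In all, 2535 genes had a pair of probe sets that passed the floor throughout, and the technical SD of a log2 ratio, from the difference within the pair, was 0.26. The brightest such pairs of members gave 0.68 and 2.76 (Fcgr2b), 0.28 and 0.93 (C3ar1), 1.06 and 0.66 (Csf1r) and 0.71 and 1.08 (Laptm5). Because the SD pools genes of every signal level above the floor, it may be too small for the members. Of the members above the floor on both arrays, 6 lay closer to the 2-fold limit of 1 than this SD: Csf1r (1.06), Clec10a (1.05), Lcp1 (1.04), Ms4a7 (1.03), Cd68 (0.97) and Cd14 (0.83), of which 4 count as at least 2-fold higher. Both arrays still differ by the animals they hold, which this SD does not cover.

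**Figure D3:**
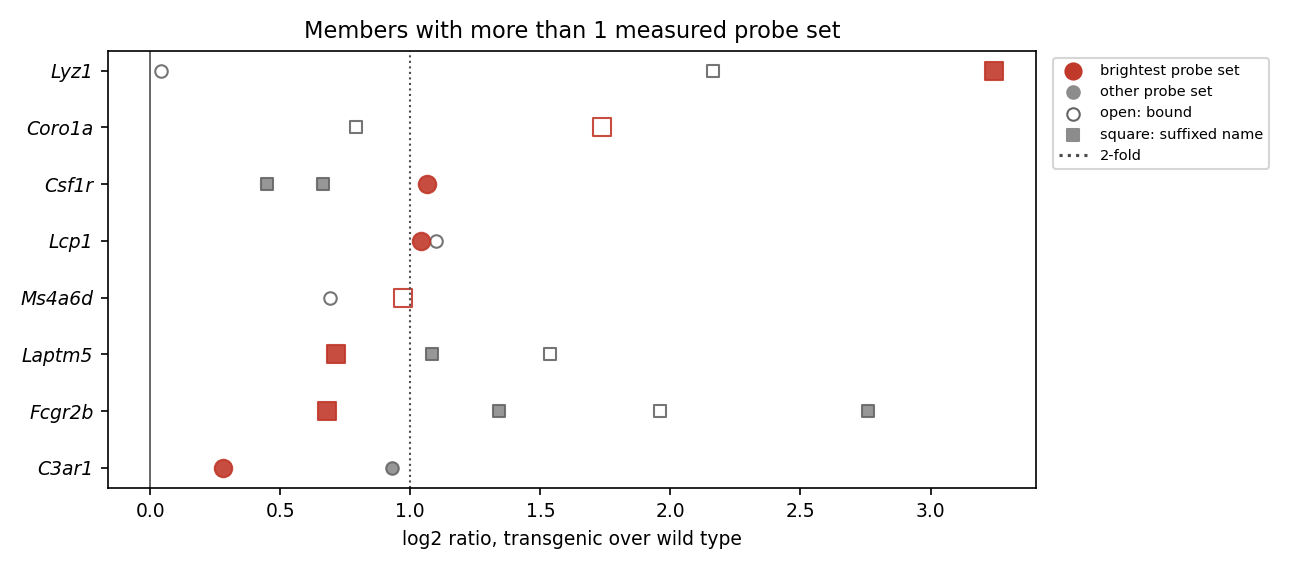
Log2 ratio (transgenic over wild type) for each measured probe set of the 8 members with more than 1, with the brightest in red, bounds as open symbols, suffixed names as squares and the 2-fold limit dotted. All points lie right of 0, where open symbols can only lie, those of Lcp1 close together and those of Fcgr2b and Lyz1 far apart.

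The size of the differences depended on the floor and on the choice of probe set. Over 9 alternatives of scaling, floor and probe set choice, 22 of the 23 members above the floor on both arrays stayed above 0 wherever they had a value, and Msr1 stayed below. Of all measured genes 43.6% were above 0. The 12 members measured on the transgenic array alone also stayed above 0, a direction that the floor fixes. Of the 21 genes called, 6 kept a log2 ratio of at least 1 in all 9: Mrc1, Tyrobp, Fcgr3, Lyz2, Lgmn and Pf4. Cyba did so in the 8 that gave it a value. The higher floor ended the call for 12 genes, among them Fcer1g (at least 0.67), Mpeg1 (at least 0.43), Cd163 (at least 0.30), Clec7a (at least 0.70), Ptprc (at least 0.73) and Cd53 (at least 0.70). Lyz1 fell to 0.04 without suffixed probe sets. Clec10a, Lcp1 and Ms4a7 were under the limit with a pseudocount in place of the floor.

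**Figure D4:**
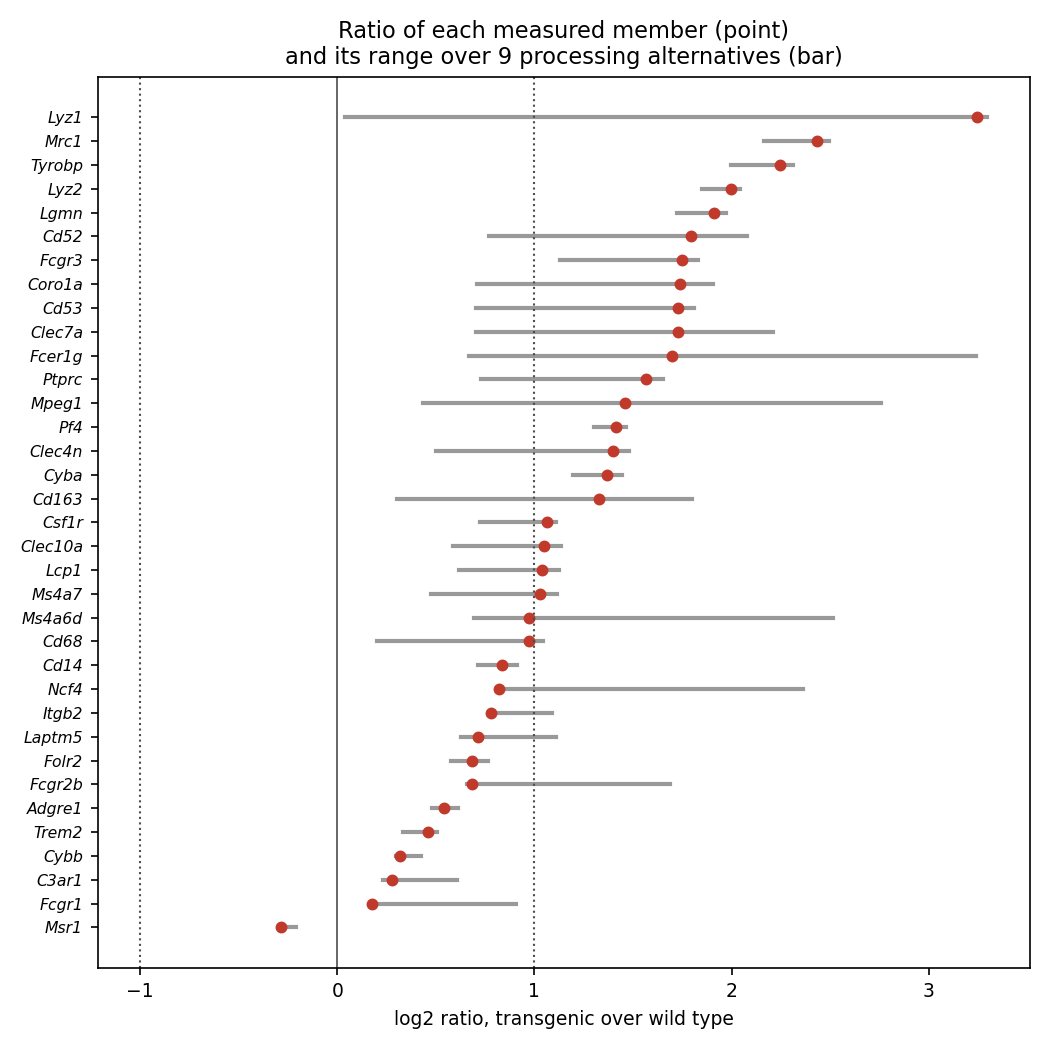
Log2 ratio (transgenic over wild type) of the 35 measured members, ordered by ratio or bound (points), with the lowest and highest value over 9 processing alternatives (bars); dotted lines mark 2-fold. Bars of Mrc1, Tyrobp, Lyz2, Lgmn, Fcgr3 and Pf4 stay right of the 2-fold line, and that of Lyz1 reaches 0.04.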

How the data were processed

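Biotin-labelled total RNA of back skin was read on 1-colour arrays, per the labels. The deposited values are linear signal intensities, 1 for each of 22690 probe sets. Their 2% trimmed means were 100.03 on both arrays, so the authors had scaled them. The software and detection calls are not given in the sources used here. Of 22626 non-control probe sets, 20380 had 1 gene in the platform annotation of 2016, 691 several and 1555 none, and only the first were named. Symbols were updated through a GRCm38.p6 gene table.

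Signals were scaled to equal 2% trimmed means, raised to a floor (40th percentile of both arrays, 34.7) and put on the log2 scale with Python 3.11.15, pandas 2.3.3 and scipy 1.17.1. The probe set of highest summed signal stood for its gene. A call is a 2-fold difference. About as many probe sets passed the floor on each array, 59.8% (transgenic) and 60.2%. Precision is limited by the number of arrays.

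Every member is named, and of each related list the 2 highest and 2 lowest measured genes, with others named where a result turns on them. The members and lists were chosen with earlier results of these data known. The calculation was tested on simulated data. Changes were planted there only in genes well above the floor, so dim members and bounds were not covered. Alternatives were the values as deposited, median centring, quantile normalization, lowess centring (span 0.4, statsmodels 0.14.6), a lower and a higher floor (20th and 60th percentiles), a pseudocount of 16, the mean over probe sets, leaving out suffixed probe sets, and limits of 1.5-fold and 3-fold.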

Additional observations from a re-analysis of the deposited data

How the results depend on the processing

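Of the 35 measured members 21 passed the 2-fold limit, and the median log2 ratio of the 35 was 1.06. Under the 60th percentile floor these were 9 of 28 and 0.71, since that floor caps the ratio of dim genes, and with a 3-fold limit 11 members passed. Under the other alternatives the count ran from 16 of 27 without suffixed probe sets to 24 of 39 under the 20th percentile floor, and 29 at a 1.5-fold limit. The median ran from 1.02 to 1.26. Over all genes, 202 of 8894 were at least 2-fold higher. That count became 393 of 10893 under the 20th percentile floor and 123 of 6352 under the 60th. At the 1.5-fold and 3-fold limits 605 and 61 of the 8894 passed. Members at least 2-fold lower were 0 under every alternative, beside only 1.09% of all measured genes under the main processing. Dim signals limit Fcgr1, Cybb, Trem2 and Msr1, all within a few units of the floor on 1 array or both. No paired analysis was possible because each genotype has 1 array.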
